A study of Mus musculus with 62 samples.

Results

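The 10 genes described here encode apelin, adrenomedullin and other signals that act on blood vessels: Apln, Aplnr, Adm, Pdgfb, Esm1, Angpt2, Vegfa, Kdr, Flt1 and Nos3. They were taken by symbol from the 47643 genes of an expression table of mouse neocortex, and all 10 were found there once. They were chosen by measured values of the same libraries, and which comparison served for the choice is not recorded. The fall of Apln in mice with cachectic melanoma against mock mice at 8 weeks was among the earlier results known. Differences between groups that use the cachectic libraries of 8 weeks are therefore given as descriptions with no p-value. Counts of called genes that use these libraries are printed as descriptions too. The within-group correlations include these libraries and do carry p-values. Tests are given for the earlier weeks and for the arm without cachexia, but they cannot be shown to be free of the choice.

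Apelin (Apln) is a secreted peptide that signals through a G-protein-coupled receptor, Aplnr, on endothelial cells, and it is a known product of the leading (tip) cells of growing vessels. VEGF-A (Vegfa) is the main growth factor of blood vessels. In the brain it is made largely by cells around the vessels, and it acts on endothelium through the receptor tyrosine kinases VEGFR2 (Kdr), which carries most of the signal, and VEGFR1 (Flt1), which binds the ligand tightly and limits what reaches Kdr. Adrenomedullin (Adm) is a vasodilator peptide induced by low oxygen that signals through Calcrl paired with a RAMP protein. Angiopoietin 2 (Angpt2) loosens the Tie2-dependent rest of vessels, PDGF-B (Pdgfb) recruits pericytes, endocan (Esm1) marks activated and tip endothelium, and endothelial nitric oxide synthase (Nos3) makes the nitric oxide that relaxes vessels.

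The libraries came from female mice 2 months of age in 3 arms. They had received melanoma cells that cause cachexia (CAC), melanoma cells that do not (NCAC), or a mock procedure, and the neocortex was sampled 2, 4, 6 and 8 weeks later. Each of the 12 groups had 5 libraries except CAC at 8 weeks, which had 7, for 62 libraries in all. The sample labels give the strain as C57BL6/J while the design text gives athymic NCI Ath/nude mice, so the strain that all groups share is not settled. Mice of a nude strain lack a thymus and hence most T cells. The extraction text also mentions LLC cells, a lung carcinoma line, and another duration, neither of which matches the sample labels. The labels call the libraries biological replicates.

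Expression was deposited as TPM, a length-normalised transcript abundance that divides reads by gene length and scales every library to one total, so levels can be compared between genes. The depth estimated from the steps between low values was 44.95 to 50.75 M reads (M, 1e6) per library. Markers of cortical layers were present in every library, at a sum of 140 TPM or more over 8 genes. Markers of striatum and of choroid plexus, which are not neocortex, were also present, with choroid plexus sums from 22.0 to 3110 TPM over 6 genes. A total of 5 libraries stood apart in a marker list: replicates 3 and 4 of CAC at 8 weeks in erythroid genes, replicate 1 of CAC at 4 weeks in striatal genes, and replicate 5 of mock at 2 weeks and replicate 1 of NCAC at 4 weeks in hypothalamic and pituitary genes. All libraries of week 2 were run on lane 3 and all of weeks 6 and 8 on lane 4, while at 4 weeks CAC was on lane 3 and mock on lane 4. NCAC at 4 weeks was split, with replicates 1 to 4 on lane 3 and replicate 5 on lane 4.

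At the level of single genes, the vascular signals spanned about the range from rare to moderately abundant transcripts. Vegfa had the highest mean over all libraries at 39.3 TPM, followed by Flt1 at 22.2, Apln at 21.8 and Pdgfb at 20.5 TPM, and these last 3 overlapped in their ranges. Nos3 at 6.83 and Kdr at 6.13 TPM overlapped as well, and Adm had 3.89 and Angpt2 1.33 TPM. Aplnr at 0.415 and Esm1 at 0.355 TPM lay under the mean of 1 TPM required for testing, so 8 of the 10 genes were tested among 14494. Their median estimated reads per library were 18.0 for Aplnr and 9.99 for Esm1, against 1030 for Apln and 2420 for Vegfa. Differences between groups are differences in log2(TPM + 1), a scale that makes changes of low genes look smaller than they are. A gene was called when the adjusted p of limma, a linear model over all libraries, was under 0.05 (Benjamini-Hochberg over all tested genes).

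Apelin mRNA was lower in the cachectic arm from 6 weeks. Apln lies on the minus strand of chromosome X at 48025146 to 48034853 (GRCm38). The 5 CAC libraries of 6 weeks had 9.71, 10.2, 15.7, 11.4 and 13.2 TPM, the 5 mock libraries 17.5, 22.4, 27.5, 24.3 and 27.2 TPM, and the 5 NCAC libraries 21.5, 28.5, 22.7, 29.3 and 21.1 TPM. Every CAC value lay under every mock and every NCAC value. The CAC mean (SD 2.44, n = 5) was 50.6% of the mock mean of 23.8 ± 4.08 and 48.9% of the NCAC mean of 24.6 ± 3.94. Apln fell by 0.93 against mock (SE 0.17, limma adjusted p = 0.00118) and by 0.98 against NCAC (SE 0.17, limma adjusted p = 0.000328), and both calls held without any single library. A two-sided exact permutation test of 5 against 5 libraries gave p = 0.00794 for each comparison, the smallest it can give. In bulk tissue, fewer cells of a type and less RNA per cell cannot be told apart.

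Vegfa and Kdr, a ligand and its main receptor, also fell in CAC at 6 weeks. Vegfa (chromosome 17, 46016993 to 46032369, minus strand) had 23.2, 25.6, 32.3, 26.5 and 31.2 TPM in CAC, 36.3, 34.9, 56.1, 43.8 and 43.1 TPM in mock, and 39.4, 44.7, 42.8, 44.7 and 39.4 TPM in NCAC. All 5 CAC values were under all values of both other arms. Vegfa fell by 0.60 against mock, to 64.8% of its mean (SE 0.13, limma adjusted p = 0.00704), and by 0.60 against NCAC, to 65.7% (SE 0.13, limma adjusted p = 0.00438). The call against mock was lost without CAC replicate 1 (limma adjusted p = 0.0618) or mock replicate 3 (limma adjusted p = 0.0567).

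Kdr (chromosome 5, 75932827 to 75978458, minus strand) had 3.45, 4.25, 4.97, 3.90 and 4.18 TPM in CAC at 6 weeks, 6.96, 6.73, 8.07, 8.06 and 6.40 TPM in mock, and 5.50, 7.29, 5.81, 6.90 and 6.16 TPM in NCAC. Here too no CAC value reached the other arms. Kdr fell by 0.68 against mock, to 57.3% of its mean (SE 0.14, limma adjusted p = 0.00549), and by 0.51 against NCAC, to 65.5% (SE 0.14, limma adjusted p = 0.0216). The call against NCAC was lost without CAC replicate 1 (limma adjusted p = 0.0738), CAC replicate 4 (0.0543), NCAC replicate 2 (0.0652) or NCAC replicate 4 (0.0585), while that against mock held without any single library. For both Vegfa and Kdr, exact permutation gave p = 0.00794 in each of these comparisons. CAC was compared with mock and with NCAC through the same CAC libraries, so these 2 comparisons are not independent.

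The promoters of Apln, Vegfa and Kdr, which fell together, and of Adm, which did not, are shown because VEGF and adrenomedullin genes are textbook targets of HIF. Each sequence is the 250 bases before the RefSeq start (GRCm38.p6, 5' to 3' on the gene's strand), and capitals mark the HIF core ACGTG or GCGTG on either strand.
Apln, chrX:48034854-48035103, minus strand: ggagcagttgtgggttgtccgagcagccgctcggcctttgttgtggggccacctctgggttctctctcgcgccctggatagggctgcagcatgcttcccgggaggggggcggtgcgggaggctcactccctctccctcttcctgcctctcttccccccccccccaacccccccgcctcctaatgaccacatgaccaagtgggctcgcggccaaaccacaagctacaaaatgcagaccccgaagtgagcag
Vegfa, chr17:46032378-46032627, minus strand: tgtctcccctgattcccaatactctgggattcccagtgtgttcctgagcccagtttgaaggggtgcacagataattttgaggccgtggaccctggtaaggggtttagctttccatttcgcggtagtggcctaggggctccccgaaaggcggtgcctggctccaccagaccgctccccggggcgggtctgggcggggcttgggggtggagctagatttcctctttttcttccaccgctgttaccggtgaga
Kdr, chr5:75978456-75978705, minus strand: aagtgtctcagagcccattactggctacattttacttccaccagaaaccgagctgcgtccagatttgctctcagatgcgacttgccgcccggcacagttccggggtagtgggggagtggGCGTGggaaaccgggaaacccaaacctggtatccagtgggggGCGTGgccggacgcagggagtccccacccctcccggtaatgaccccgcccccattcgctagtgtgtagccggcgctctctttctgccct
Adm, chr7:110627407-110627656, plus strand: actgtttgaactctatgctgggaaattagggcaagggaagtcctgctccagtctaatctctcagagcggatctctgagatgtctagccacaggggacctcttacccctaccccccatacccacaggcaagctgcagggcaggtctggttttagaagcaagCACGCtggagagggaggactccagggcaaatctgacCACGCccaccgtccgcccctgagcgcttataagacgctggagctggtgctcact
The HIF core occurred 0 times in these windows of Apln and Vegfa, 2 times in Kdr (131 and 89 bases before the start) and 2 times in Adm (90 and 54 bases before it). A second RefSeq start of Vegfa had 2 in its window. That window, 46025164 to 46025413, lies inside the Vegfa gene and not before it. Of 32851 promoter windows of the same length 38.6% held the core. Bases outside the windows were not searched, so a count of 0 does not mean that a gene lacks the core. The GC box GGGCGG, on either strand, occurred 1 time in Apln, 2 in Vegfa, 2 in Kdr and 1 in Adm, and in 32.7% of all windows. The motifs CACGTG (which contains ACGTG; in 6.02% of windows) and TGTTTAC (3.17%), and the palindromic glucocorticoid response element (0.00913%), searched on both strands, were in none of these 4 windows.

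**Figure D1:**
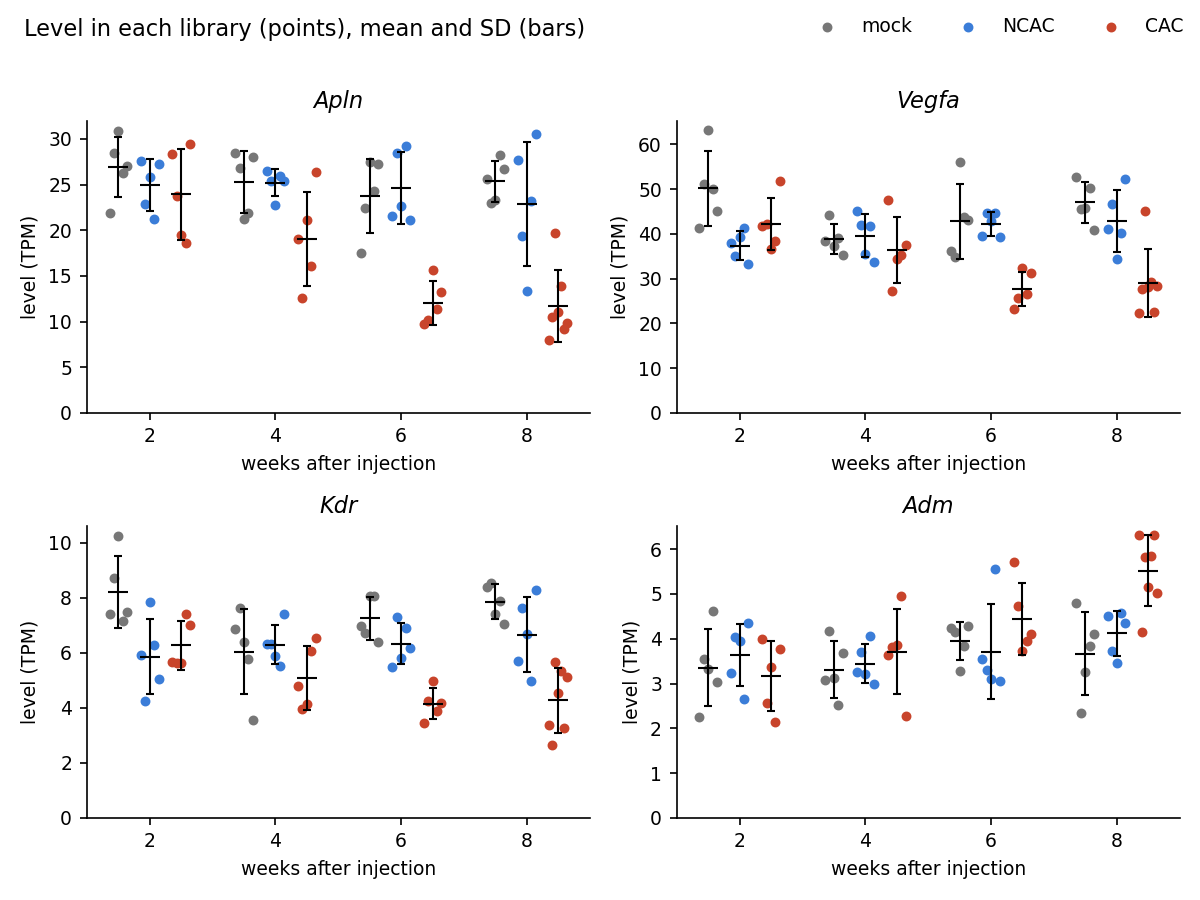
Levels of Apln, Vegfa, Kdr and Adm in TPM (y axes from 0) in each library, by week after injection (x axis), with mock in grey, NCAC in blue and CAC in red; points are libraries and bars the mean and SD. At 6 weeks the CAC points of Apln, Vegfa and Kdr lie under all points of the other arms, and at 8 weeks most CAC points of Adm lie above them.

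The other 7 genes were not called at 6 weeks or were too low to be tested. Of the 8 tested genes, 3 were called against mock, all lower, where 1.63% of all tested genes were called, and 3 against NCAC, all lower, where 9.65% were called. The genes were selected with results of these mice known, so the counts are not independent of the choice. The median difference of the tested genes from mock was -0.03, against 0.03 over all genes. Flt1 had 22.8 TPM ± 3.20 (n = 5) in CAC and 21.8 ± 2.43 in mock, a difference of 0.06 with a 95% interval from -0.16 to 0.28. Nos3 differed by 0.05 (-0.19 to 0.30), Pdgfb by 0.00 (-0.20 to 0.21), Angpt2 by -0.06 (-0.28 to 0.17) and Adm by 0.13 (-0.16 to 0.42).

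Ratios within a library, chosen after seeing the data, describe Kdr beside Flt1, the other receptor of the same ligand. The Kdr level per Flt1 level at 6 weeks was 0.183 ± 0.0185 in CAC (0.165 to 0.214), 0.333 ± 0.0260 in mock (0.30 to 0.37) and 0.298 ± 0.0191 in NCAC (0.278 to 0.320). CAC lay under both other arms, which overlapped each other. Against the summed level of 23 pan-endothelial markers, Apln stood at 2.27 ± 0.527 per 100 TPM in CAC, 5.19 ± 0.837 in mock and 5.38 ± 0.610 in NCAC. Kdr stood at 0.781 per 100 TPM of these markers in CAC, 1.58 in mock and 1.38 in NCAC. The marker Ly6c1 was itself higher in CAC. With it left out of the sum, Apln stood at 2.81, 5.97 and 6.24 in CAC, mock and NCAC. Kdr then stood at 0.967, 1.81 and 1.61. No test is given for these ratios, since they were formed from numerators already seen to be low in CAC. They are not levels per endothelial cell. Within groups Apln did not follow the mean of the endothelial markers (r = -0.01, rho = 0.00). The endothelial sum itself was 470 to 552 TPM in CAC, 440 to 487 in mock and 413 to 488 in NCAC.

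At 8 weeks the same direction was seen, with no test given. Apln ranged from 7.95 to 19.7 TPM over the 7 CAC libraries (median 10.5) and from 23.0 to 28.2 over the 5 mock libraries, so the groups did not overlap. Its CAC mean of 11.7 TPM ± 3.97 (n = 7) was 46.2% of the mock mean, a difference of -1.10 (SE 0.16). Kdr ranged from 2.66 to 5.67 TPM in CAC and from 7.06 to 8.55 in mock, a difference of -0.78 (SE 0.13). Vegfa ranged from 22.2 to 45.2 TPM in CAC and from 40.8 to 52.7 in mock, a difference of -0.71 (SE 0.12), and 6 of 7 CAC libraries lay under all mock libraries. The exception was replicate 3, which also had the highest Apln and Kdr of its group and the erythroid genes noted above. Meningeal fibroblast markers again summed higher in CAC, at 1500 to 2050 TPM against 721 to 1300 in mock, without overlap, and to 1130 to 1700 TPM in NCAC; their part was not tested. Without the libraries that stood apart the differences from mock were -1.25 for Apln, -0.87 for Kdr and -0.84 for Vegfa.

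In the NCAC arm at 8 weeks Apln ranged from 13.4 to 30.5 TPM, with a mean of 22.8 ± 6.80 (n = 5), and overlapped both other arms. The CAC means were 51.3% of the NCAC mean for Apln, 67.7% for Vegfa and 64.2% for Kdr. Over all genes, 8.6% were called in CAC against mock and 6.02% in CAC against NCAC at this week, and of the 8 tested vascular genes 4 and 3. Those values were known when the genes were chosen, so nothing is read from these counts. The Kdr level per Flt1 level was 0.173 in CAC (0.121 to 0.231), 0.342 in mock (0.292 to 0.383) and 0.318 in NCAC.

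Adrenomedullin went the other way at 8 weeks. Adm (chromosome 7, 110627661 to 110629820, plus strand) ranged from 4.15 to 6.32 TPM in the 7 CAC libraries (median 5.83), with mock at 4.80, 2.33, 3.26, 3.83 and 4.10 TPM and NCAC at 4.50, 3.72, 3.46, 4.57 and 4.34 TPM. In 6 of 7 CAC libraries Adm was above all mock and all NCAC libraries. The mean of 5.52 TPM ± 0.790 was 151% of mock (difference 0.50, SE 0.13) and 134% of NCAC (difference 0.35). The difference from mock rested partly on mock replicate 2 and was 0.38 without it. At 6 weeks CAC held 5.70, 4.73, 3.72, 3.96 and 4.12 TPM, which overlapped mock at 3.28 to 4.29 TPM. Choroid plexus markers at 8 weeks summed to 63.4 to 2510 TPM in CAC (median 163), 576 to 2390 in mock (median 1020) and 135 to 2360 in NCAC (median 1160), and their part in the Adm difference was not tested. Between 6 and 8 weeks the Adm difference of CAC from mock grew by 0.37, with an interval from -0.03 to 0.77.

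The apelin receptor was too rare for a firm statement. Aplnr (chromosome 2, 85136225 to 85139923) had 0.0818 to 0.265 TPM in the 7 CAC libraries of 8 weeks and 0.335 to 0.385 TPM in mock, with no overlap, but these levels rest on an estimated 4 to 13 reads in CAC and 17 to 20 in mock. NCAC ranged from 0.177 to 0.550 TPM and overlapped both. At 6 weeks Aplnr differed by -0.01 between CAC and mock in the fit without the filter. Its mock level was highest at 2 weeks, at 0.913 TPM with a range from 0.482 to 1.55. Esm1 (chromosome 13, 113209659 to 113218098) stayed between group means of 0.271 and 0.430 TPM in all 12 groups.

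PDGF-B, the ligand that endothelium offers to pericytes, was lower in NCAC than in mock at 8 weeks but was not called. Pdgfb (chromosome 15, 79995874 to 80014977) had 15.9, 19.4, 16.3, 19.5 and 18.3 TPM in NCAC and 23.0, 20.4, 26.4, 24.8 and 24.0 TPM in mock, with no overlap and a mean 75.4% of mock. The difference of -0.39 (SE 0.10) had an unadjusted p of 0.000392 in limma and an adjusted p of 0.896. Mock means were 21.7, 19.7, 20.4 and 23.7 TPM at 2, 4, 6 and 8 weeks. NCAC means were 20.6, 19.5, 21.8 and 17.9 TPM. Mock was thus at its highest in the week when NCAC was at its lowest. In CAC at 8 weeks Pdgfb was at 17.2 to 23.0 TPM, 83.0% of mock, and overlapped it.

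**Figure D2:**
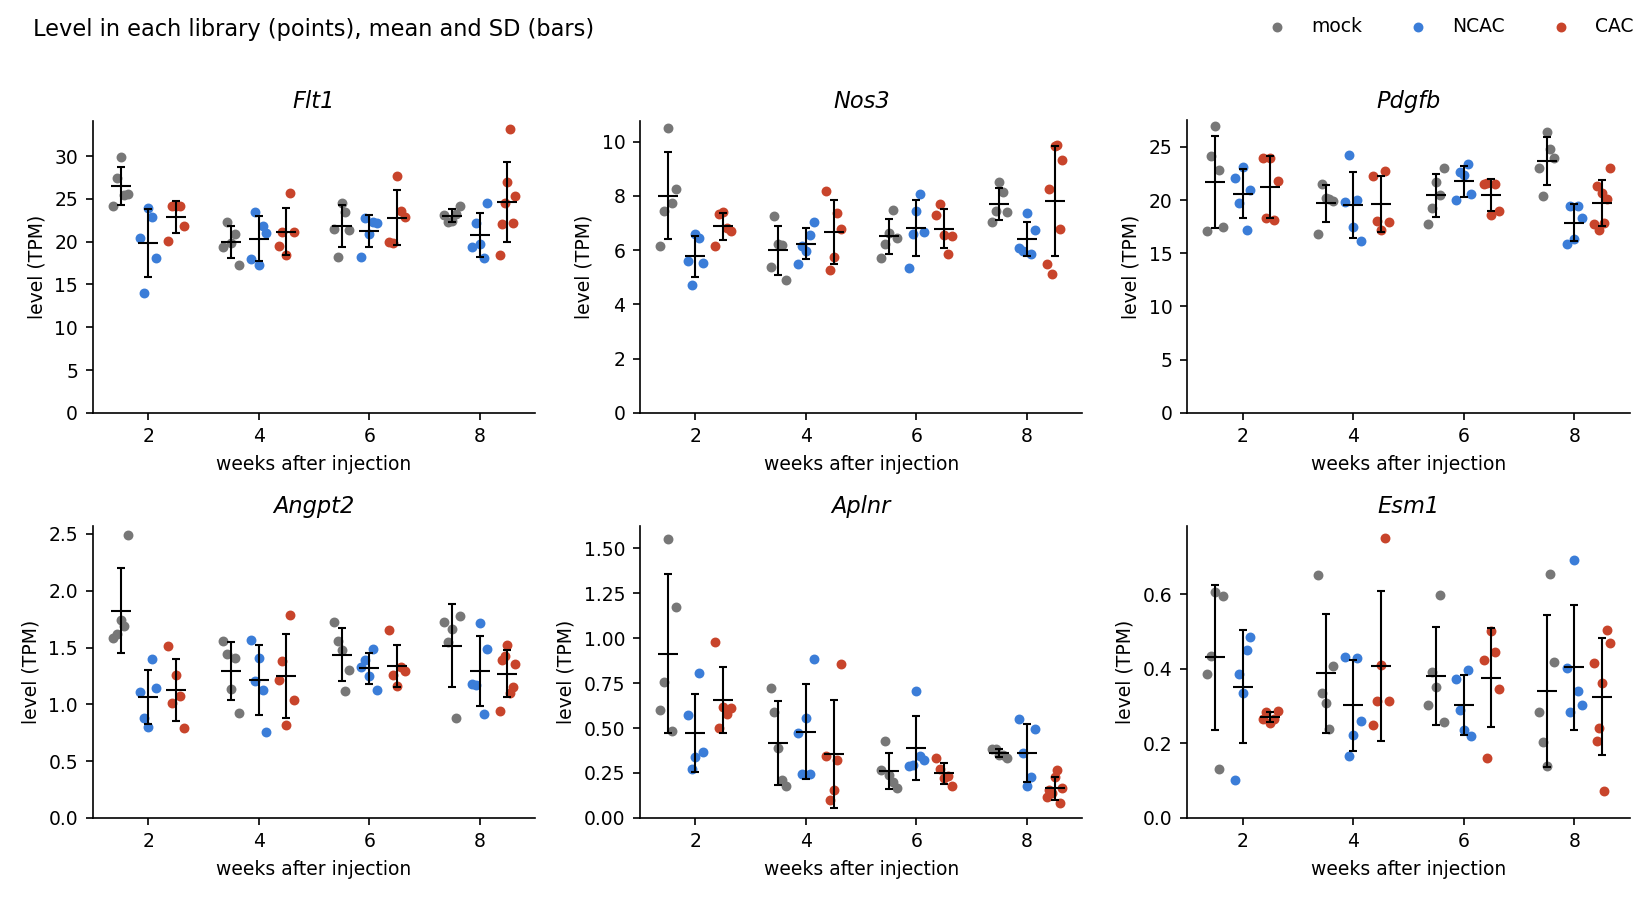
Levels of Flt1, Nos3, Pdgfb, Angpt2, Aplnr and Esm1 in TPM (y axes from 0) in each library, by week (x axis), with mock in grey, NCAC in blue and CAC in red; points are libraries and bars the mean and SD. At 2 weeks the mock points of Flt1 and Angpt2 lie above all NCAC and CAC points, and at 6 weeks the 3 arms overlap in each of these genes.

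At 4 weeks Apln was already low in most CAC libraries, at 19.0, 12.6, 21.1, 16.1 and 26.4 TPM against 21.3 to 28.5 in mock and 22.8 to 26.5 in NCAC. It did not pass the test: the difference was -0.42 from mock (SE 0.17, limma adjusted p = 0.292) and -0.43 from NCAC (limma adjusted p = 0.204). An exact permutation test of this gene alone gave p = 0.0397 for each comparison, with 4 of 5 CAC libraries under all others. Lane and group cannot be told apart between CAC and mock at this week. With lane as a term the difference of Apln was -0.41 (SE 0.35). That term rests on NCAC replicate 5, the single NCAC library of this week on lane 4, so it cannot separate lane from group. By limma 0 of the 8 tested genes were called in CAC against mock, where 0.0414% of all genes were, and 0 in CAC against NCAC, where 0.0069% were. Each of these comparisons had 1 gene under 0.05 before adjustment, Apln, and voom called 0.

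In the arm with non-cachectic tumours none of the tested genes passed the test after 2 weeks. At 4, 6 and 8 weeks 0 of the 8 tested genes were called in NCAC against mock by limma, where 0.0% of all genes were called at each week, and voom also called 0. The genes at an unadjusted p under 0.05 were 0, 0 and 1, the last being Pdgfb. For Apln the NCAC to mock difference at 6 weeks was 0.05, with an interval from -0.29 to 0.39.

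At 2 weeks Angpt2, Flt1, Nos3, Vegfa and Kdr were lower in NCAC than in mock, and Apln was not called. In NCAC against mock 5 of the 8 tested genes were lower, where 8.71% of all genes were called. Each of these genes had its highest mock mean and its lowest NCAC mean in this week. For Flt1 the mock means were 26.5, 19.9, 21.8 and 23.0 TPM at 2, 4, 6 and 8 weeks. The NCAC means were 19.9, 20.3, 21.3 and 20.8 TPM. Whether mock or NCAC had moved was not tested. Angpt2 (chromosome 8, 18690263 to 18741562) had 1.11, 0.876, 0.799, 1.40 and 1.14 TPM in NCAC, 1.51, 1.01, 1.25, 1.07 and 0.794 TPM in CAC, and 1.59, 1.62, 1.74, 1.69 and 2.49 TPM in mock. Mock lay above both tumour arms without overlap. Angpt2 fell by 0.45 in NCAC (SE 0.11, limma adjusted p = 0.0133) and by 0.41 in CAC (SE 0.11, limma adjusted p = 0.0279). The CAC call was the single one among the 8 tested genes, where 4.28% of all genes were called, and it was lost without CAC replicate 2 (limma adjusted p = 0.0563), CAC replicate 5 (0.117) or mock replicate 5 (0.0947).

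The receptors and the synthase followed in NCAC at 2 weeks. Flt1 (chromosome 5, 147561604 to 147726011) had 20.4, 14.1, 23.9, 22.9 and 18.1 TPM in NCAC and 24.2, 27.5, 29.95, 25.4 and 25.6 TPM in mock, and fell by 0.42 (SE 0.11, limma adjusted p = 0.0174). Nos3 (chromosome 5, 24364810 to 24384474) fell by 0.40 (limma adjusted p = 0.0331), Vegfa by 0.40 (limma adjusted p = 0.0448) and Kdr by 0.44 (limma adjusted p = 0.0472), each with overlap between the groups. Apln differed by -0.10 (limma adjusted p = 0.729). All 5 calls were lost without NCAC replicate 2, where limma adjusted p was 0.063 for Angpt2, 0.116 for Flt1, 0.134 for Nos3, 0.128 for Vegfa and 0.191 for Kdr. Flt1 was also lost without NCAC replicate 5 (limma adjusted p = 0.0661), Nos3 without NCAC replicates 1 or 5 or mock replicates 3 or 5 (0.0571 to 0.118), Vegfa without NCAC replicates 1 or 5 or mock replicates 2, 3, 4 or 5 (0.0502 to 0.142), and Kdr without NCAC replicates 1 or 5 or mock replicates 1, 2, 3 or 5 (0.0552 to 0.134). With only these 2 groups in the fit, limma called 0 of the 8.

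Other genes of these pathways moved at 2 weeks too. In NCAC against mock the angiogenic ligand Figf rose by 0.42 and the pericyte receptor Pdgfrb fell by 0.28, and 3 of 14 other tip cell genes were lower, the basement membrane collagens Col4a1 and Col4a2 and the adhesion molecule Mcam. Markers of other cells moved with them. Against mock, NCAC had 7 of 12 pericyte markers and 5 of 23 pan-endothelial markers lower and 5 of 8 neuron markers higher. Pericyte sums were 179 to 271 TPM in NCAC, 229 to 267 in CAC and 261 to 329 in mock. Summed endothelial markers were 363 to 508 TPM in NCAC, 421 to 482 in CAC and 474 to 570 in mock. Neuron sums were 6020 to 7300, 6300 to 8090 and 4500 to 7100 TPM in the same order. Mock replicate 5, with the hypothalamic and pituitary genes, belongs to this week; without the libraries that stood apart 4 genes were called in NCAC and 0 in CAC (Angpt2 at a limma adjusted p of 0.0921, Kdr in NCAC at 0.0518). The part of these markers in the result was not tested. Nos3 shares 1040 exonic bases with the antisense gene Gm15587 and 294 with Atg9b. Counting by strand is not stated, so reads of Nos3 are uncertain to that extent.

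No gene was called between CAC and NCAC at 2 weeks: by limma 0 of the 8 tested genes, by voom 0 and before adjustment 0, where 0.0% of all genes were called. The fall of Apln against mock grew from 2 to 8 weeks by 0.92 (SE 0.23, interval -1.39 to -0.46), given without a p since it uses the CAC libraries of 8 weeks. In that comparison 1 of the 8 genes and 1.32% of all genes were past the threshold, and for the same reason nothing is read from this count. From 6 to 8 weeks the Apln difference of CAC from mock changed by -0.17 (interval -0.64 to 0.30), and by limma 0 of the 8 genes and 0.0% of all genes were called, 0 of the 8 by voom and 0 before adjustment. Within an arm, 0 of the 8 genes and 0.0% of all genes were called by limma and 0 of the 8 by voom in mock at 8 against 4 weeks, CAC at 8 against 6 weeks and NCAC at 8 against 6 weeks, with 4, 0 and 1 at an unadjusted p under 0.05.

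**Figure D3:**
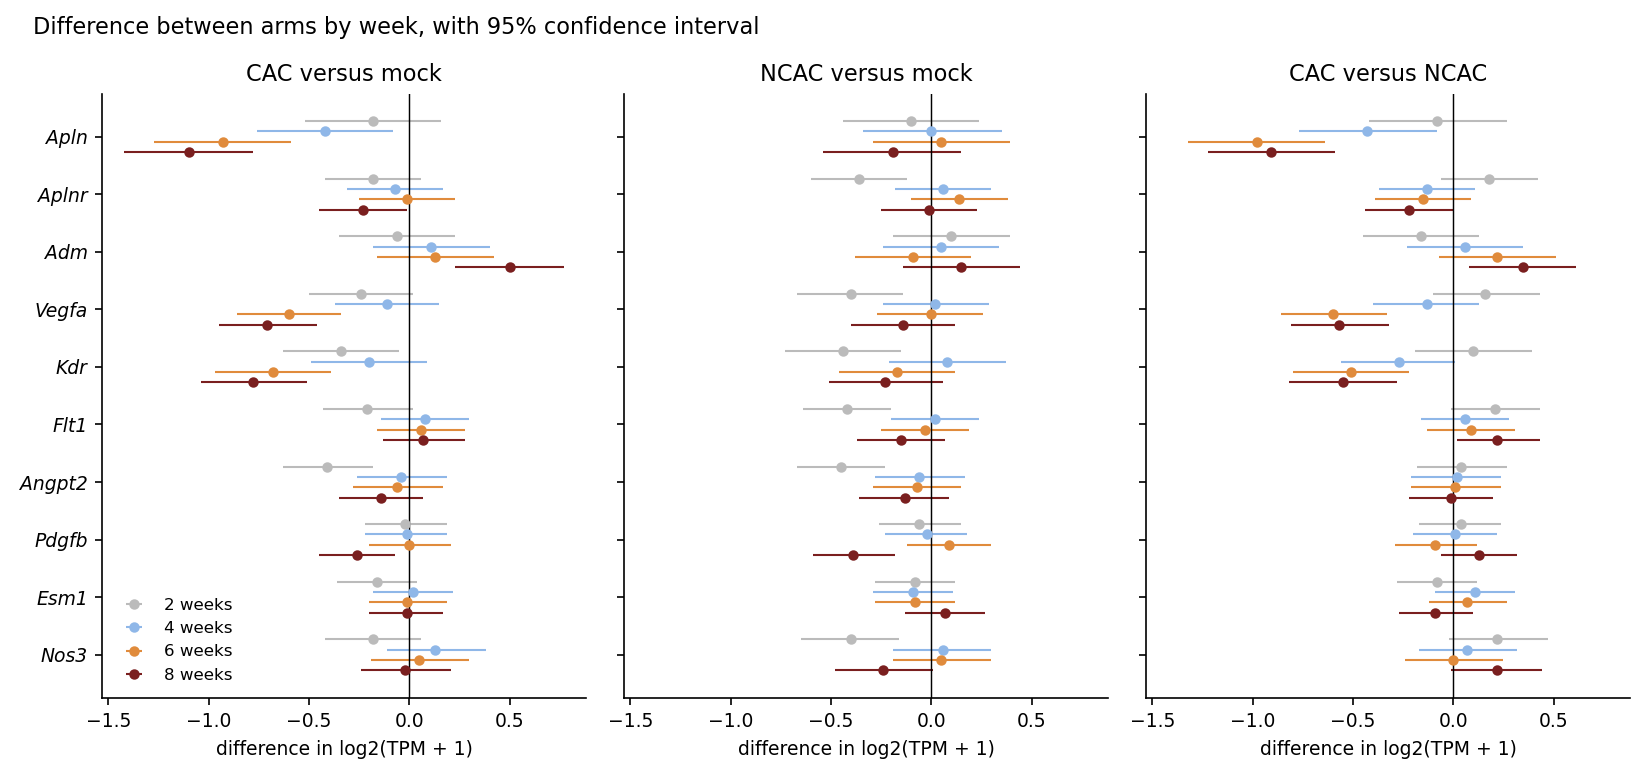
Difference in log2(TPM + 1) with its 95% interval (x axis) for the 10 genes (y axis) in CAC against mock, NCAC against mock and CAC against NCAC, with the 4 weeks in colour; Aplnr and Esm1 come from the fit without the filter on low values. At 6 and 8 weeks the points of Apln, Vegfa and Kdr lie under 0 in both panels with CAC, and in NCAC against mock the points of Angpt2, Flt1, Nos3, Vegfa and Kdr lie lowest at 2 weeks.

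Among the other genes of these pathways few changed at 6 weeks. In mock at 8 weeks the apelin co-ligand Apela was at 0.0185 TPM. For adrenomedullin the receptor Calcrl was at 5.57 TPM and its partners Ramp1, Ramp2 and Ramp3 at 65.1, 10.1 and 23.1 TPM; of 8 tested genes of that list 0 were called against mock by limma or voom, and 3 were under 0.05 before adjustment. Against NCAC 1 of the 8, Crcp, rose by 0.19 (SE 0.06, limma adjusted p = 0.0436), and voom called 0. At 8 weeks Ramp2, a partner with which Calcrl forms an adrenomedullin receptor, had 14.4 TPM ± 2.76 in CAC (n = 7) and 10.1 ± 1.95 in mock (n = 5), a difference of 0.46.

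The VEGF and angiopoietin systems changed in 1 further gene each. Of 7 other VEGF ligands and receptors, among them Vegfb at 79.9 TPM, Nrp1 at 13.9, Pgf at 3.72, Vegfc at 3.69, Figf at 2.13 and Flt4 at 1.64 TPM in mock, 0 were called in CAC against mock at 6 weeks by limma or voom (1 before adjustment), and Vegfb fell by 0.32 against NCAC (SE 0.07, limma adjusted p = 0.00457). Of 4 tested angiopoietin and Tie genes the phosphatase Ptprb, which restrains Tie2, fell by 0.36 against mock (SE 0.10, limma adjusted p = 0.0477). The receptors Tek and Tie1 were at 9.88 and 6.30 TPM in mock and Angpt1 at 5.28 TPM, and none of these was called at 6 weeks. Of 5 other PDGF genes, with Pdgfra at 22.2 and Pdgfrb at 16.7 TPM, 0 were called by limma or voom and 0 were under 0.05 before adjustment.

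In the nitric oxide list 2 of 12 genes fell against mock at 6 weeks. Ddah1, which breaks down an inhibitor of nitric oxide synthases, fell by 0.26 (SE 0.06, limma adjusted p = 0.0137), and Cav1, which binds and restrains Nos3, fell by 0.31 (SE 0.08, limma adjusted p = 0.0295). Against NCAC both fell again, with Ddah2 lower by 0.39 on the same scale (difference -0.39, limma adjusted p = 0.00917). Of 14 other tip cell genes Unc5b, a netrin receptor, fell by 0.52 (SE 0.14, limma adjusted p = 0.0463) and Cotl1 rose by 0.29 (SE 0.08, limma adjusted p = 0.0273) against mock. Against NCAC these 2 moved the same way and Cd34 rose by 0.46. In the list of Notch genes 0 of 12 were called by limma or voom in either comparison, with 1 in each under 0.05 before adjustment.

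A list for hypoxia-inducible factors (HIF) held not only induced genes but also genes of the HIF system itself, such as Epas1, Hif3a and Vhl. Against mock at 6 weeks 0 of its 25 genes were called by limma or voom (8 before adjustment), with a median of 0.01. Against NCAC 5 of 25 rose by limma, 2 by voom. These were Epas1 (0.24, limma adjusted p = 0.0279), which encodes HIF-2α, Egln1 (0.15), Ero1l (0.25), Mxi1 (0.24) and Kdm3a (0.26). At 8 weeks 3 were higher and 3 lower in CAC against mock. The 3 higher ones included Hif3a at 1.53 and the glucose transporter Slc2a1 at 0.64, and the lower ones were Ldha, Vhl and Ak4.

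**Figure D4:**
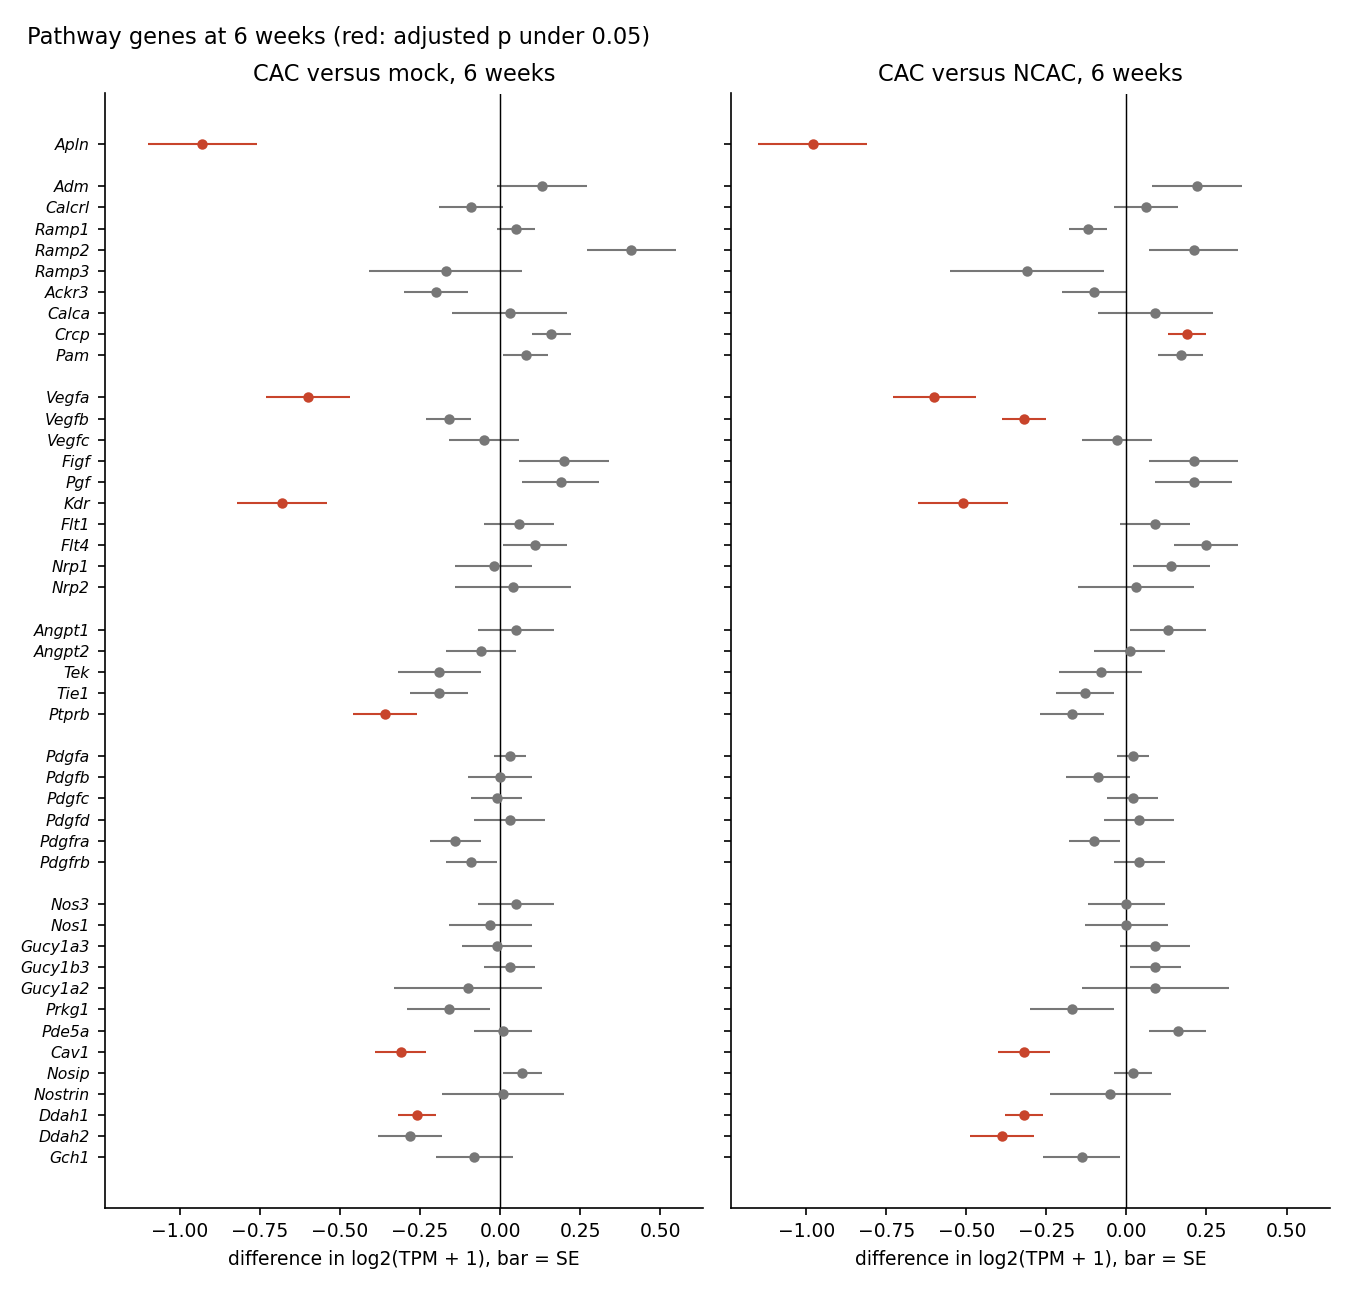
Difference in log2(TPM + 1) (x axis, bar = SE) at 6 weeks in CAC against mock and CAC against NCAC for Apln and the genes of the adrenomedullin, VEGF, angiopoietin, PDGF and nitric oxide lists (y axis), with a limma adjusted p under 0.05 in red. Apln, Vegfa, Kdr, Cav1 and Ddah1 are red in both panels, joined by Ptprb against mock and by Vegfb, Crcp and Ddah2 against NCAC.

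Several marker lists moved beside the fall of Apln, Vegfa and Kdr at 6 weeks, and their part in it was not tested. Of 23 pan-endothelial markers Ly6c1 rose by 0.80 against mock, from 59.1 TPM ± 3.89 to 104 ± 14.2 (n = 5 each, limma adjusted p = 1.07e-05), Ptprb fell, and the median was 0.03. Of 8 oligodendrocyte markers 2 were lower against mock, Opalin by 1.08 below it (difference -1.08, limma adjusted p = 0.00515) and Ugt8a (difference -0.70), and 6 were lower against NCAC. Their sums were 1910 to 2130 TPM in CAC, 2000 to 2650 in mock and 2170 to 2820 in NCAC. Oligodendrocyte precursor markers summed to 180 to 239 TPM in CAC (median 196), 199 to 246 in mock (median 241) and 217 to 267 in NCAC (median 248). A gene of that list was called lower against NCAC. Astrocyte sums were 2530 to 3090, 2530 to 2720 and 2460 to 2620 TPM in the same order. Choroid plexus markers, called in 0 of 6 cases by limma or voom and 0 before adjustment, summed to 22.0 to 2630 TPM in CAC (median 182), 63.6 to 2850 in mock (median 1820) and 29.3 to 2780 in NCAC (median 1610). Meningeal fibroblast markers summed to 1480 to 2730 TPM in CAC, above all mock libraries at 952 to 1390 and all NCAC libraries at 1040 to 1270 TPM. Of these 8 markers 0 were called against mock by limma or voom (2 before adjustment), and Ptgds, a prostaglandin D synthase, rose by 0.68 against NCAC (SE 0.19, limma adjusted p = 0.02). Pericyte sums were 182 to 225, 225 to 252 and 214 to 258 TPM, with 0 of 12 called against mock by limma or voom (4 before adjustment) and Higd1b lower against NCAC. Of 12 microglia markers, 8 neuron markers and 6 smooth muscle markers 0 were called against mock by limma or voom, with 2, 1 and 0 before adjustment. Lists for thalamus (6 tested), hypothalamus and pituitary (7) and olfactory bulb (4) had 0 called by limma, by voom or before adjustment.

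Genes induced by glucocorticoids, a list informed by earlier results of these data, were called higher in 5 of 16 cases against mock and 10 of 16 against NCAC at 6 weeks. The classical target Fkbp5 had 41.2 TPM ± 12.9 in CAC and 18.1 ± 2.11 in mock (n = 5 each) and rose by 1.10 (limma adjusted p = 0.00924). At 8 weeks 15 of 16 were higher against mock and 14 of 16 against NCAC.

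Within groups, the genes formed pairs. After each group mean was subtracted, the deviations of 62 libraries were correlated for 95 pairs of genes and marker scores, a family set up after seeing the data, and 20 pairs passed an adjusted p under 0.05 by both coefficients. The points share library and scaling to a common total. Apln went with Vegfa (Pearson r = 0.70, Spearman rho = 0.63, both permutation p = 1e-05, the smallest that 100000 permutations can give, adjusted 0.000237). It was 0.62 without the 2 libraries farthest in Apln, 0.59 on lane 3 and 0.76 on lane 4, and 0.83, 0.54 and 0.59 within CAC, NCAC and mock. Kdr went with Flt1 (r = 0.68, rho = 0.67, both permutation p = 1e-05, adjusted 0.000237), with 0.68 without the 2 farthest libraries, 0.65 on lane 3 and 0.70 on lane 4. Vegfa with Kdr reached r = 0.54 and rho = 0.58 (permutation p = 4e-05 and 3e-05, adjusted 0.00076 and 0.00057), with 0.50 without the 2 farthest and 0.49 and 0.57 on the lanes.

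Flt1, Nos3, Kdr and Pdgfb went with the endothelial score, the mean of the pan-endothelial markers, and Apln and Aplnr did not pass that test. For Pdgfb r was 0.44 and rho 0.45 (permutation p = 0.00119 and 0.00086, adjusted 0.0103 and 0.00743). Its r was 0.41 without the 2 farthest libraries, 0.45 and 0.44 on the lanes, and 0.38, 0.34 and 0.63 within CAC, NCAC and mock. Flt1 had r = 0.76 and rho = 0.77, and Nos3 r = 0.73 and rho = 0.68 (all permutation p = 1e-05, adjusted 0.000237); without the 2 farthest libraries r was 0.71 and 0.69, on lane 3 it was 0.89 and 0.76, and on lane 4 it was 0.66 and 0.73. Kdr had r = 0.48 and rho = 0.49 (permutation p = 0.00193 and 0.00058, adjusted 0.0131 and 0.00551), with 0.50 without the 2 farthest libraries, 0.67 and 0.36 on the lanes, and 0.24, 0.80 and 0.47 within CAC, NCAC and mock. Aplnr had r = 0.16 and rho = 0.14 (permutation p = 0.262 and 0.325, adjusted 0.479 and 0.552), with 0.12 without the 2 farthest libraries and 0.22 and 0.10 on the lanes. For Apln r was -0.01 and rho 0.00 (permutation p = 0.95 and 0.988, adjusted 0.968 and 0.988), with 0.10 without the 2 farthest libraries and -0.05 and 0.02 on the lanes. Apln with the oligodendrocyte score gave r = 0.41 and rho = 0.37 (permutation p = 0.00207 and 0.00819, adjusted 0.0131 and 0.039), with 0.34 without the 2 farthest libraries and 0.47 and 0.39 on the lanes. Vegfa passed with that score too (r = 0.42, rho = 0.37, permutation p = 0.00272 and 0.00679, adjusted 0.0161 and 0.0379). Its r was 0.37 without the 2 farthest libraries and 0.42 and 0.45 on the lanes. Vegfa ran against the choroid plexus score (r = -0.40, rho = -0.34, permutation p = 0.00724 and 0.0162, adjusted 0.0313 and 0.064, so the rank coefficient did not pass), with -0.32 without the 2 farthest libraries and -0.40 and -0.41 on the lanes. Adm went with that score (r = 0.37, rho = 0.38, permutation p = 0.00705 and 0.00476, adjusted 0.0313 and 0.0323), with 0.38 without the 2 farthest libraries, 0.34 and 0.40 on the lanes, and 0.52, 0.59 and 0.00 within CAC, NCAC and mock. Esm1 did so too (r = 0.43, rho = 0.46, permutation p = 0.0009 and 0.00049, adjusted 0.0095 and 0.00517), with 0.40 without the 2 farthest libraries and 0.35 and 0.47 on the lanes.

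Kdr was lower in libraries with a higher glucocorticoid score (r = -0.59, rho = -0.56, permutation p = 8e-05 and 6e-05, adjusted 0.00127 and 0.00095). The value was -0.55 without the 2 farthest libraries, -0.45 on lane 3 and -0.68 on lane 4, and -0.65, -0.46 and -0.61 within CAC, NCAC and mock. Vegfa passed as well (r = -0.49, rho = -0.36, permutation p = 0.00152 and 0.0097, adjusted 0.012 and 0.0419), with -0.40 without the 2 farthest libraries, -0.35 and -0.58 on the lanes, and -0.78, -0.05 and -0.11 within the arms in the same order. So did Aplnr (r = -0.47, rho = -0.40, permutation p = 0.00109 and 0.00628, adjusted 0.0103 and 0.0373), with -0.42 without the 2 farthest libraries, -0.44 and -0.52 on the lanes, and -0.45, -0.71 and -0.36 within the arms. Apln, which did not pass by rank, gave r = -0.51 (permutation p = 0.00066, adjusted 0.00784) but rho = -0.29 (permutation p = 0.0392, adjusted 0.117), with -0.40 without the 2 farthest libraries and -0.46 and -0.55 on the lanes. Within CAC, NCAC and mock its r was -0.83, -0.16 and 0.05; differences between arms were not tested for any of these genes.

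**Figure D5:**
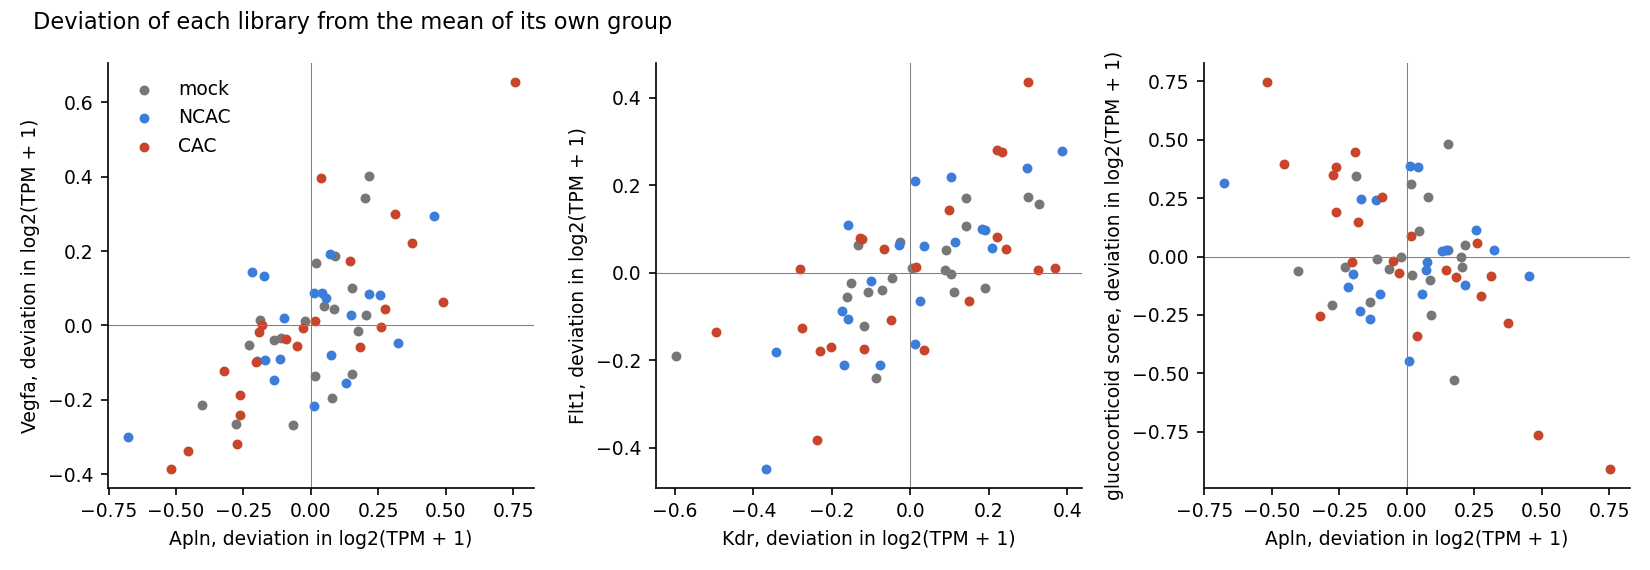
Deviation of each library from its group mean in log2(TPM + 1), as 3 scatter plots of Apln (x) against Vegfa (y), Kdr against Flt1, and Apln against the glucocorticoid score, with mock in grey, NCAC in blue and CAC in red; each point is a library. The first 2 clouds rise (r = 0.70 and 0.68), and in the last the CAC points slope down (r = -0.83 within CAC).

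The genes most like each of these over the 62 libraries, group differences included, are given with Pearson's r and no p. For Apln they included Serpinb1a (0.87) and Gkn3 (0.86). At 6 weeks Serpinb1a differed between CAC and mock by -0.76 and Gkn3 by -1.93. For Vegfa they were the table's entry Ltbp4_1 (0.87), Igdcc4 (0.87) and the glutamine transporter Slc38a3 (0.84), and for Kdr Fermt2 (0.85), Slc38a3 (0.83) and the alkaline phosphatase Alpl (0.83). Slc38a3 was thus among the 3 nearest genes of both Vegfa and Kdr. For Flt1 they were Mllt6 (0.77), Cdh5 (0.75), the endothelial cadherin, and She (0.74), and for Nos3 the endothelial genes Robo4 (0.74) and Esam (0.72) and the laminin gene Lamb2 (0.72).

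The remaining genes had looser neighbours. Adm was nearest to Ccnd3 (0.70), Lurap1l (0.68) and Dyrk3 (0.67), Pdgfb to Cbfa2t3 (0.72), Rara (0.70) and Fam129b (0.68), and Aplnr to Fabp7 (0.72), Chst3 (0.70) and Tril (0.70). Angpt2 reached 0.60 with Aldh9a1 and 0.57 with Sema4g and Vsig10, and Esm1 0.54 with BC067074 and 0.47 with Lepr and Slc12a2.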

How the data were processed

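RNA of mouse neocortex was sequenced with a stranded mRNA kit in 62 libraries of 12 groups, per the labels' protocols. The authors deposited 1 table of TPM values for 47643 genes, with each library scaled to a sum of 1000000; the genome build was mm10, per the submitters' processing notes, and no aligner, counter or strand setting is given in the sources used here. Some 27 symbols had been turned into dates and were kept as they stand. Exon lengths from GENCODE vM21 turned steps between low TPM values into estimated reads, and 86.3% of 207334 values between 0.5 and 10 reads came out whole within 0.05. Depth was 44.95 to 50.75 M reads (M, 1e6) (median 48.2), and no 2 libraries were identical.

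Values were taken as log2(TPM + 1), and 14494 genes, those averaging 1 TPM or more, were tested with limma 3.58.1 (empirical Bayes with trend, R 4.3.3) in a single fit of 12 groups with 50 residual degrees of freedom. P-values were adjusted by Benjamini-Hochberg over all tested genes within each of 17 comparisons, with a threshold of 0.05. The spread measured is that between libraries, which may be partly technical. Aplnr and Esm1, under the filter, were read from a fit without it, chosen after seeing the data. Single genes were also tested by two-sided exact permutation of libraries (scipy 1.17.1), and within-group correlations by 100000 permutations within groups. Figures used matplotlib 3.10.9. The fit was tested on simulated data.

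The genes and the gene lists were chosen with earlier results of these data known. The genes named are all 10, up to 4 called genes per list and comparison by lowest p, the ligands and receptors of each pathway with their level in mock at 8 weeks, and the 3 genes most correlated with each of the 10; results for 2 genes that this rule names are not reported here. The remaining called hypoxia gene, and the marker lists for thalamus, hypothalamus with pituitary, and olfactory bulb, were added after values were seen, as were the ratios, the set of correlations and the leaving out of libraries that stood apart. Alternatives were voom on the estimated reads, TMM scaling (trimmed mean of M-values), a pseudocount of 0.1, robust moderation, no filter, only the groups compared, lane as a term at 4 weeks, a replicate block, and each library left out.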

Additional observations from a re-analysis of the deposited data

Results flagged for a closer look

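Single libraries lay far from the rest of their group in 7 cases out of 120 groups of values examined, where chance gives about 1 in 20, or 6.0. Vegfa was at 45.2 TPM in CAC replicate 3 at 8 weeks, with the other 6 at 22.2 to 29.2 TPM. Adm was at 5.56 TPM in NCAC replicate 4 at 6 weeks against 3.05 to 3.55 TPM. Angpt2 was at 2.49 TPM in mock replicate 5 at 2 weeks against 1.59 to 1.74 TPM, and at 0.879 TPM in mock replicate 4 at 8 weeks against 1.55 to 1.78 TPM. Aplnr was at 0.979 TPM in CAC replicate 1 at 2 weeks against 0.502 to 0.615 TPM, and at 0.707 TPM in NCAC replicate 3 at 6 weeks against 0.288 to 0.345 TPM. Esm1 was at 0.693 TPM in NCAC replicate 3 at 8 weeks against 0.283 to 0.401 TPM.

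The CAC to mock difference of Apln changed between weeks, by -0.92 from 2 to 8 weeks, in a test of the change itself. The genes were chosen with the values of 8 weeks known, so it is a description.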

How the results depend on the processing

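No result changed direction under the alternatives run. Among single genes in single comparisons, 1841 alternative values kept their side of the threshold, 49 lost a call and 14 gained one. In CAC against mock at 2 weeks, 1 of the 8 genes was called, against 0 with only the groups compared in the fit, 0 without the libraries that stood apart (chosen after seeing the data), and 0 to 1 with each library left out. In NCAC against mock at 2 weeks the count of 5 became 2 without the filter, 0 with only the groups compared, and 0 to 5 with each library left out. In CAC against NCAC at 8 weeks the count of 3 became 1 with only the groups compared. At 6 weeks the counts of 3 became 2 to 3 with each library left out, and at 4 weeks CAC against NCAC gave 0 to 1. For the shift of the difference between CAC and mock from 2 to 8 weeks the count of 1 became 0 without the filter, 0 with only the groups compared and 0 to 2 with each library left out. The deviations of same-numbered libraries had median correlations of -0.0503, 0.0396, 0.0378 and -0.0505 at 2, 4, 6 and 8 weeks. Other pairs had medians of -0.00741, -0.0205, -0.0366 and -0.0119. Same-numbered libraries were treated as unpaired in the main fit, and whether they shared handling was not tested. With the replicate number as a block the count for the change from 2 to 8 weeks was 0, that for NCAC against mock at 2 weeks 4, and that for CAC against mock at 8 weeks 3 in place of 4. Where a cause is not plain from fewer genes or samples, the cause was not tested. Depth limits Aplnr and Esm1, with medians of 18.0 and 9.99 estimated reads.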
